A study of Mus musculus with 9 samples.

Results

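Gasdermin C genes, Retnlb and Pla2g4c are epithelial genes whose RNA was measured here in 3 groups of mouse small intestine, together with Gsdmd, a gasdermin from outside the C cluster. The rule took every probe set annotated to exactly 1 of 7 symbols (Gsdmc, Gsdmc2, Gsdmc3, Gsdmc4, Gsdmd, Retnlb and Pla2g4c). It found 5 probe sets for 4 genes, out of 45037 probe sets and 18193 singly named genes on the array: 1 each for Gsdmc2, Gsdmd and Retnlb and 2 for Pla2g4c. All 5 passed the filter on low values, in which at least 3 of 9 arrays had to exceed 4.95 on the normalized log2 scale. Gsdmc, Gsdmc3 and Gsdmc4 had no probe set of their own. A further 2 probe sets were annotated to several gasdermin C genes, so no gene is named from them and they are given by their identifiers. The genes were chosen by their measured differences between the 3 groups. Their levels and differences are therefore a description, and no p-value is attached to them.

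Each of 9 mice gave RNA for 1 Affymetrix mouse expression array: 3 jejuna from controls, 3 jejuna from Gata4 mutants and 3 ilea from further controls. Controls (Gata4loxP/+VilCre) had a wild-type and a loxP-flanked copy of Gata4, the zinc finger factor of the proximal gut, whereas mutants (Gata4loxP/-VilCre) had a null copy in place of the wild-type one. Every mouse also carried the villin-Cre transgene, which drives Cre recombinase in gut epithelium, so the loxP-flanked copy met Cre in controls too and other cell layers kept it. The mice were males of 6 to 8 weeks, jejunum was taken 10 cm past the pyloric sphincter and ileum 1 cm before the cecum, and each array was a separate animal. Whole-tissue RNA was measured, so that fewer cells of a type and less RNA per cell cannot be told apart. Levels are quantile-normalized log2(intensity + 16), on which an intensity of 0 gives about 4. Gata4 RNA was not lower on the mutant arrays (9.38 to 9.61 on one probe set and 7.91 to 8.47 on the other) than in control jejunum (9.49 to 9.57 and 7.30 to 8.07). It was low in ileum (5.20 to 5.64 and 4.26 to 4.90). Whether these probes lie in the deleted stretch is not stated, so they check the segment and not the genotype labels. The ileum arrays were dimmer before normalization, with trimmed mean intensities of 97.5 to 122 against 148 to 181 on the 6 jejunum arrays, and brightness and segment cannot be told apart. Mutant jejunum 3 lay apart from the other 8 arrays on the second principal component (-55.80, against -6.17 to 22.43) and had the lowest array weight, 0.384. Of the epithelial markers, Vil1 (villin) stood between 12.65 and 12.99 on all 9 arrays and Muc2 (the gel-forming mucin of goblet cells) between 12.45 and 13.09, while Spdef, a goblet transcription factor, stood between 6.66 and 8.12. Fabp1, a fatty acid binding protein of enterocytes, was near 13.70 in control jejunum and at 10.02, 8.63 and 5.99 on control ileum 1, 2 and 3 (difference -5.49, adjusted p = 0.000677).

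Gasdermins are held inactive until a protease frees an N-terminal fragment that forms pores in the plasma membrane, which can end in pyroptosis, a lytic form of cell death. Gsdmd is the gasdermin cut by inflammatory caspases, and the mouse gasdermin C genes lie side by side on chromosome 15 and are known from gut epithelium, where type 2 cytokines raise them during worm infection. Retnlb encodes resistin-like molecule beta, a cysteine-rich protein that goblet cells secrete and that is known from the distal gut. Pla2g4c encodes a cytosolic phospholipase A2, an enzyme that releases fatty acids from membrane phospholipids, and it differs from its best known relative in lacking the calcium-binding C2 domain.

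Gsdmc2 was low in control jejunum and higher in mutant jejunum and control ileum, and it differed widely between mice of the same group. On probe set 1454883_at the level was 7.63, 5.03 and 4.71 on control jejunum 1, 2 and 3. On mutant jejunum 1, 2 and 3 it was 9.88, 11.15 and 7.22. On control ileum 1, 2 and 3 it was 12.04, 11.07 and 9.91. Mutant jejunum 3 lay below control jejunum 1, so the 2 jejunal groups overlapped, while all 3 ileal arrays lay above all 3 control jejunum arrays. As deposited intensities, before normalization, the control jejunum spanned 11.8 to 209, the mutant jejunum 139 to 2907 and the ileum 747 to 2942. The mean was 5.79 ± 1.60 for control jejunum, 9.42 ± 2.01 for mutant jejunum and 11.01 ± 1.07 for the ileum (SD, n = 3 each). Mutant exceeded control jejunum by 3.63 (standard error 0.97) on the log2 scale, ileum exceeded control jejunum by 5.22 (0.97), and mutant jejunum minus ileum was -1.59 (0.97). With single arrays left out, the difference between the 2 jejunal groups ran from 2.75 (without mutant jejunum 2) to 4.73 (without mutant jejunum 3), and mutant jejunum minus ileum from -2.45 to -0.49 (without the same arrays).

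The 2 probe sets annotated to several gasdermin C genes followed the same arrays. Probe set 1430641_at stood at 10.48, 7.76 and 6.92 on control jejunum 1, 2 and 3, at 11.57, 12.79 and 7.76 on mutant jejunum 1, 2 and 3, and at 13.10, 12.81 and 12.08 on control ileum 1, 2 and 3. Probe set 1419591_at gave 8.38, 4.26 and 4.58 for control jejunum, 9.79, 11.39 and 5.27 for mutant jejunum, and 11.48, 11.28 and 10.15 for the ileum. On both, control jejunum 1 was the highest of its group and mutant jejunum 3 the lowest of its own, and the ileal arrays lay closer together (SD 0.53 and 0.72) than either jejunal group (SD 1.86 to 3.18). The cluster's genes are near copies of each other, so signal on any of the 3 probe sets may come from more than 1 of them.

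Pla2g4c, the phospholipase gene, had the same order of arrays as Gsdmc2 within each group, in both of its probe sets. On probe set 1436712_at it stood at 7.51, 4.52 and 4.45 on control jejunum 1, 2 and 3, at 11.11, 12.08 and 7.91 on mutant jejunum 1, 2 and 3, and at 12.64, 11.62 and 8.28 on control ileum 1, 2 and 3. The 3 mutant arrays all lay above the 3 control jejunum arrays, though mutant jejunum 3 was only just above control jejunum 1. On probe set 1444662_at the levels were 6.39, 5.12 and 4.87, then 9.99, 11.09 and 6.45, then 12.85, 10.75 and 7.31. Mutant jejunum 3 and control ileum 3 were again the lowest of their groups. Mutant minus control jejunum was 4.87 (standard error 1.26) on the first probe set and 3.71 (1.32) on the second. Ileum minus control jejunum was 5.35 (1.26) and 4.84 (1.32), and mutant jejunum minus ileum was -0.48 (1.26) and -1.13 (1.32). Without mutant jejunum 3 the first probe set gave 6.10 between the jejunal groups, and without mutant jejunum 2 it gave 3.99. The sign of mutant jejunum minus ileum depended on single arrays, with 0.75 and 0.24 on the first and second probe set without mutant jejunum 3 and 0.41 and 0.15 without control ileum 1.

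**Figure D1:**
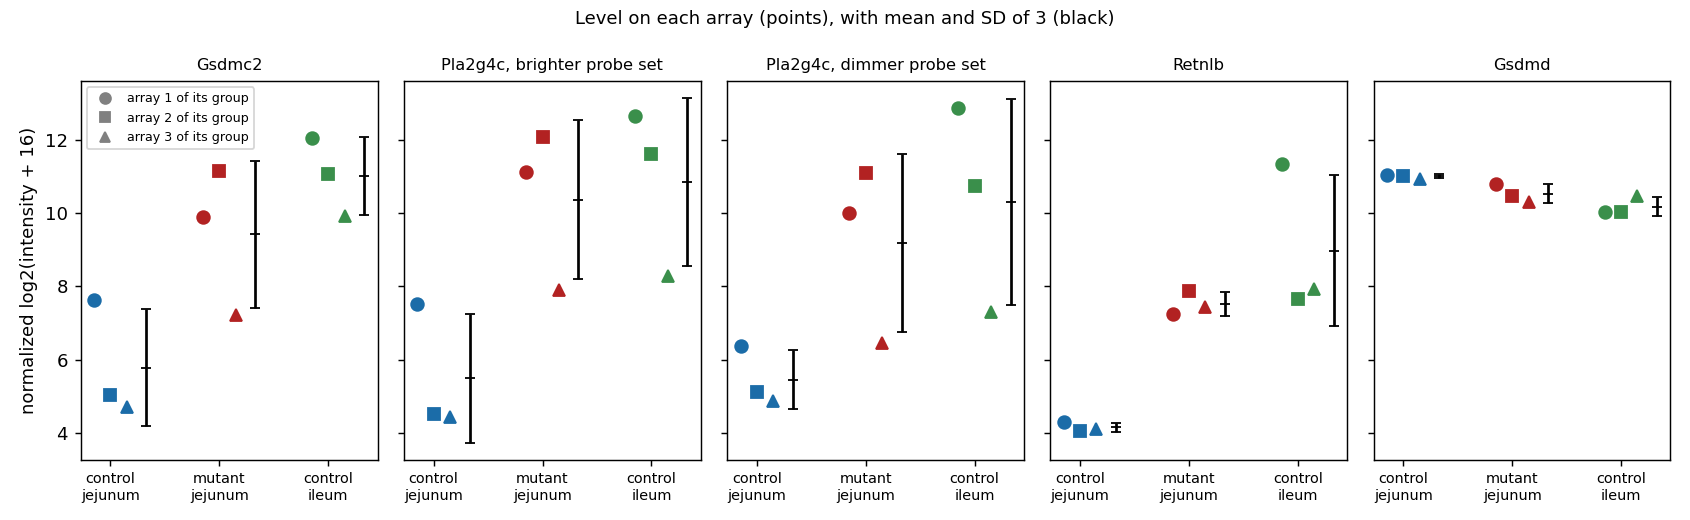
Levels of the 5 probe sets of Gsdmc2, Pla2g4c, Retnlb and Gsdmd, as normalized log2(intensity + 16), with 1 point per array (circle, square and triangle for arrays 1, 2 and 3 of a group) and the mean ± SD of 3 in black. Gsdmc2 and Pla2g4c spread over several log2 units within a group, Retnlb sits near 4 on all 3 control jejunum arrays, and Gsdmd stays between 10.02 and 11.04.

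Promoter sequences were looked up for all 7 symbols because the cluster and Pla2g4c were high and low on the same arrays. RefSeq (GRCm38.p6) promoters of 300 bases, from 250 before to 50 after a start, were at hand for Pla2g4c (2 starts) and Gsdmc3 (1 start). They are printed 5′ to 3′ on the gene's strand, with capitals where GATAA, the core letters bound by GATA factors, or its reverse complement occurs. The positions are chr7:13325417-13325716 (+ strand) and chr7:13329072-13329371 (+ strand) for the first and second Pla2g4c start and chr15:63878509-63878808 (- strand) for Gsdmc3.
Pla2g4c, first start: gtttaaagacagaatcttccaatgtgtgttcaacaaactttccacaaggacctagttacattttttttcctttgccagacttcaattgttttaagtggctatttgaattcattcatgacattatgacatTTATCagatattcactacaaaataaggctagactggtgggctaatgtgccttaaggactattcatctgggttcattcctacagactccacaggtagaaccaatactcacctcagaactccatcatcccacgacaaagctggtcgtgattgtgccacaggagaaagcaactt
Pla2g4c, second start: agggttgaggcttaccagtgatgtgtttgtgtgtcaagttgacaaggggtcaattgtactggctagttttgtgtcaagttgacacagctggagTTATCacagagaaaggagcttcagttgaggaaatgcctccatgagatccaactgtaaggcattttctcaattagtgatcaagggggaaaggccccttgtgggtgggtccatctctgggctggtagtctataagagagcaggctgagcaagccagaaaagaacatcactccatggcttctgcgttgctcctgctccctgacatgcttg
Gsdmc3: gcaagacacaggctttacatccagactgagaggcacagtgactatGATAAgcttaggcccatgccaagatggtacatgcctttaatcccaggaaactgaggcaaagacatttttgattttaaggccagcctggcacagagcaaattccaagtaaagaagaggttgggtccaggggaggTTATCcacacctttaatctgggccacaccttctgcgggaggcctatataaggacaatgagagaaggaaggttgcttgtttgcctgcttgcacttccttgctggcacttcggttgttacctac
Each Pla2g4c promoter held 1 match to GATAA and the Gsdmc3 promoter held 2, counting both strands and any overlap. Of 32851 promoters of the same length, 25.4% held at least 1. None of the 3 held TTTATNG (the letters searched for CDX factors, in 10.9% of all promoters), the STAT6 motif (TTC and GAA with 4 bases of any kind between them, in 6.95%) or AAGTCCA (HNF4, in 4.17%). The matches are letters in a window and were not measured as binding.

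Retnlb, the goblet cell product, was at the bottom of the scale in all 3 control jejunum arrays and well above it in all 6 others. Its levels were 4.31, 4.07 and 4.10 on control jejunum 1, 2 and 3, where the deposited intensities were 4.24, 0.861 and 1.41. On mutant jejunum 1, 2 and 3 it stood at 7.24, 7.87 and 7.44, and on control ileum 1, 2 and 3 at 11.34, 7.66 and 7.92. The mutant arrays were close together (SD 0.32), including mutant jejunum 3, where Gsdmc2 and Pla2g4c were lowest. Control ileum 1 lay over 3 log2 units above the other 2 ileal arrays, of which one lay within the mutant range and one just above it. Mutant exceeded control jejunum by 3.36 (standard error 0.73), and ileum exceeded it by 4.81 (0.73). Mutant jejunum minus ileum was -1.45 (0.73), but -0.27 without control ileum 1. Because control jejunum was near intensity 0, these sizes depend on the pseudocount, with 7.50 for ileum against control jejunum at a pseudocount of 1 and 3.13 at 64.

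Gsdmd ran the other way and was steady within groups. It stood at 11.04, 11.02 and 10.94 on control jejunum 1, 2 and 3, at 10.80, 10.47 and 10.29 on mutant jejunum 1, 2 and 3, and at 10.03, 10.02 and 10.47 on control ileum 1, 2 and 3. All mutant and all ileal arrays lay below all control jejunum arrays, and the mutant and ileal ranges overlapped. Mutant minus control jejunum was -0.48 (standard error 0.16) and ileum minus control jejunum was -0.83 (0.16). Without scaling between arrays the ileal difference was -1.39.

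Between mutant and control jejunum, 1 of the 5 member probe sets (Retnlb) passed an adjusted p under 0.05, where 3.56% of all 29307 probe sets tested did (limma, Benjamini-Hochberg over all of them). The groups did not overlap for 4 of the 5, against 22.5% of all tested. Between control ileum and control jejunum all 5 passed, against 16.2% of all tested, and for all 5 the groups did not overlap, against 37.4%. Between mutant jejunum and control ileum none of the 5 passed (limma, 1 with an unadjusted p under 0.05), against 2.65% of all tested, and the groups overlapped for all 5, where 20.6% of all tested did not overlap. The choice of the genes used these contrasts, so nothing is read from these counts. The first 2 contrasts share the control jejunum arrays.

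How mice of the same group differ was described next. Whether the choice of genes also drew on these differences is not recorded, so they too are a description. The standard deviation within groups was 1.60 for Gsdmc2, 2.08 and 2.19 for the 2 probe sets of Pla2g4c, and 1.20 for Retnlb, where the median over all 29307 tested probe sets was 0.223. At least 99.8% of tested probe sets had a spread no larger than each of these, whereas Gsdmd, at 0.214, lay at the 46.6th percentile. Each array's deviation from its own group mean was then set beside that of the other genes. Gsdmc2 deviated by 1.84, -0.76 and -1.08 on control jejunum 1, 2 and 3, by 0.46, 1.74 and -2.19 on mutant jejunum 1, 2 and 3, and by 1.03, 0.06 and -1.10 on control ileum 1, 2 and 3. Pla2g4c (1436712_at) deviated by 2.02, -0.98 and -1.04 in control jejunum, by 0.74, 1.71 and -2.45 in mutant jejunum, and by 1.79, 0.77 and -2.56 in the ileum. Within each group the 3 arrays ranked alike for both genes. The lowest was array 3 in all 3 groups, also on the second probe set of Pla2g4c. An effect common to same-numbered arrays was not tested for these genes. Over the 9 arrays the deviations of Gsdmc2 and this probe set had a Pearson r of 0.948 (Spearman rho 0.95), and r was 0.922 without the 2 arrays farthest from the median of Gsdmc2. Of the other tested probe sets, 42 had a higher r with Gsdmc2. The second probe set of Pla2g4c had r = 0.865 with Gsdmc2. These values describe the same 9 arrays, whose technical quality both genes share, and carry no p-value.

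Retnlb and Gsdmd followed Gsdmc2 less closely. The deviations of Retnlb had r = 0.395 with those of Gsdmc2 (rho 0.517), and those of Gsdmd had r = 0.0865 (rho 0.20). The highest Retnlb array of each group was the same as for Gsdmc2 and Pla2g4c, namely control jejunum 1, mutant jejunum 2 and control ileum 1, while the other 2 ranked differently in every group. In control jejunum Retnlb was at the bottom of the scale, so its deviations there carry no information. Mutant jejunum 3 had deviations of -2.19 for Gsdmc2 and -2.45 for Pla2g4c (1436712_at) and of -0.08 for Retnlb.

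**Figure D2:**
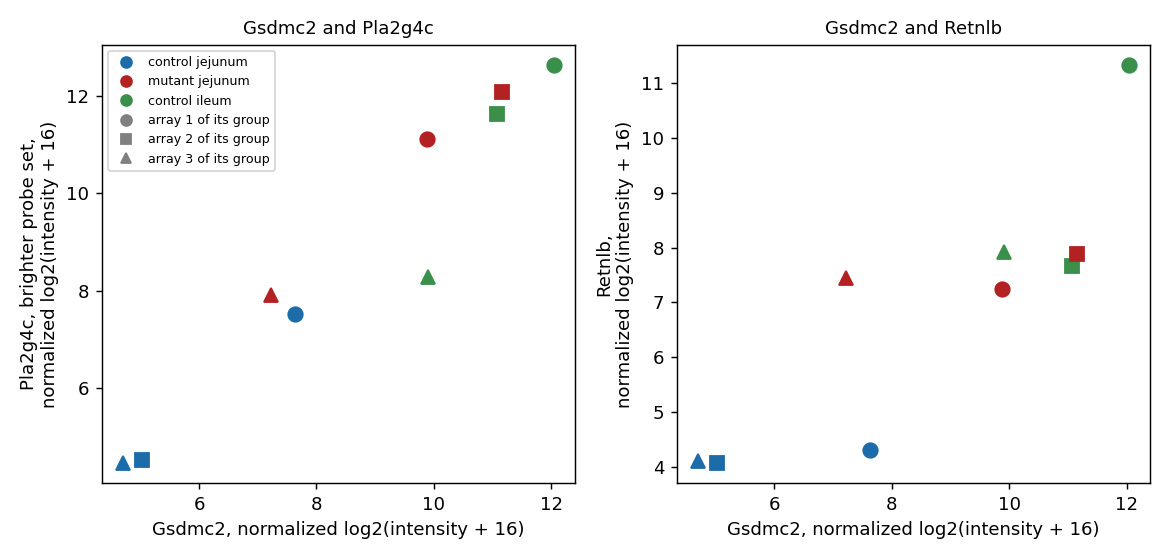
Level of Pla2g4c (1436712_at, left) and of Retnlb (right) against Gsdmc2 on each of 9 arrays, all as normalized log2(intensity + 16), with colours for the group and shapes for the array number. Pla2g4c follows Gsdmc2 across all arrays, while Retnlb is near 4, the bottom of the scale, on all control jejunum arrays and 7.44 on mutant jejunum 3, where Gsdmc2 is 7.22.

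Markers of 12 cell types or tissues were set beside these deviations, and those with r beyond 0.7 in either direction for Gsdmc2, Pla2g4c (1436712_at) or Retnlb are given. The mean of the tuft cell markers, of which 6 of 8 were measured, moved with Gsdmc2 and Pla2g4c, though single markers did not all do so. The mean tuft level was 5.89, 5.89 and 5.50 on control jejunum 1, 2 and 3, 6.93, 6.68 and 5.65 on mutant jejunum 1, 2 and 3, and 6.58, 6.45 and 5.55 on control ileum 1, 2 and 3. The array with the lowest tuft mean in each group was also the one with the lowest Gsdmc2. Dclk1, a kinase that marks tuft cells, stood at 6.40, 6.27 and 5.86 on control jejunum 1, 2 and 3. It was 7.46, 7.26 and 6.09 on mutant jejunum 1, 2 and 3 and 7.39, 7.31 and 5.81 on control ileum 1, 2 and 3. Trpm5, Gfi1b and Avil were also lowest on array 3 of each group. Pou2f3 was lowest on array 2 in control jejunum (5.38, 4.97 and 5.26) and in ileum (5.56, 4.81 and 5.44). Sh2d6 was lowest on control jejunum 1 (5.81, 6.57 and 6.05), where Gsdmc2 was highest of its group. Summed deposited intensity of the 6 tuft markers ran from 222 to 342 in control jejunum, 234 to 934 in mutant jejunum and 165 to 463 in control ileum, and none of the 6 was at 0 on any array, the lowest intensity being 9.08. The deviations of the tuft mean had r = 0.775 with Gsdmc2 (rho 0.683, and 0.734 without the 2 farthest arrays) and r = 0.862 with Pla2g4c (1436712_at; rho 0.633, and 0.586 without the 2 farthest). No tuft marker was called in any of the 3 contrasts (limma; with unadjusted p under 0.05, 1 marker between mutant and control jejunum, 1 between ileum and control jejunum and 0 between mutant jejunum and ileum). Control jejunum 1, where Gsdmc2 was highest of its group, had the same tuft mean as control jejunum 2. The part of tuft cells in the levels of Gsdmc2 and Pla2g4c was not tested.

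The 7 goblet markers varied little within groups, with deviations of -0.08 to 0.07, yet these small deviations ran with Gsdmc2 (r = 0.857) and with Pla2g4c (r = 0.926 on 1436712_at). Without the 2 farthest arrays these were 0.879 and 0.797. The goblet mean ran from 11.85 to 11.88 in control jejunum, 11.98 to 12.13 in mutant jejunum and 12.16 to 12.29 in the ileum. Summed goblet intensity ran from 42870 to 48100, from 44401 to 56890 and from 36953 to 44457 for these groups. Marker sums are given throughout as deposited intensities, before normalization. The ileum arrays were dimmer, so the sums do not compare ileum with jejunum. Mast cell markers, 4 of 5 measured, ran with Retnlb (r = 0.854, rho 0.65, and 0.903 without the 2 farthest arrays). Their mean was 8.03 on control ileum 1 against 6.46 and 5.40 on control ileum 2 and 3, and their summed intensity spanned 133 to 968 in ileum, 479 to 765 in mutant jejunum and 237 to 504 in control jejunum. Mcpt1, a protease of mucosal mast cells, stood at 9.82 on control ileum 1, the array where Retnlb was 11.34. T cell markers, 3 of 5 measured, were low on the same array, at a mean of 5.95 against 7.38 and 7.20, and had r = -0.895 with Retnlb, or -0.429 without the 2 arrays farthest from its median. Summed T cell intensity was 112 to 392 in ileum, 606 to 930 in control jejunum and 796 to 833 in mutant jejunum. No mast, T cell or goblet marker was at 0 on any array. Myeloid markers, 5 of 5 measured, ran opposite to Gsdmc2 (r = -0.768, or -0.807 without the 2 farthest arrays). With Pla2g4c (1436712_at) r was -0.810, or -0.482 without the 2 farthest arrays. Their normalized mean was 8.02 to 8.04 in control jejunum, 7.78 to 8.45 in mutant jejunum and 7.70 to 8.05 in ileum. Their summed intensities were 3827 to 4209, 2984 to 4834 and 2173 to 3828 in these groups. Colon epithelium markers, 4 of 8 measured, had r = 0.796 with Gsdmc2 and 0.840 with Pla2g4c, and their summed intensity was 2083 to 3335 in control jejunum, 1256 to 3381 in mutant jejunum and 2621 to 4119 in ileum. Enteroendocrine markers, 4 of 4 measured, had r = -0.748 with Gsdmc2, or -0.650 without the 2 farthest arrays. Their normalized mean was 7.42 to 7.66, 6.98 to 7.37 and 7.19 to 7.26 in these groups. Their sum was 1721 to 1894, 970 to 1447 and 586 to 754. Of 7 neutrophil and eosinophil markers 2 were measured (Epx and Siglecf), with r = 0.787 with Pla2g4c, or 0.481 without the 2 farthest arrays. Their normalized mean was 4.85 to 5.24, 5.24 to 5.92 and 4.46 to 6.20, with sums of 34.5 to 55.0, 46.4 to 166 and 10.8 to 92.3. Enterocyte markers, 7 of 7 measured, had r = 0.726 with Pla2g4c, or 0.298 without the 2 farthest arrays, and sums of 56259 to 65508, 45107 to 62748 and 31811 to 37241. In ileum Fabp1 ranged far more widely than any other enterocyte marker, from 5.99 to 10.02. Alpi ranged there from 11.77 to 12.28 and Vil1 from 12.84 to 12.92. The ileal deviations of the enterocyte mean thus came mainly from Fabp1 and not from the 7 markers alike. No marker of these 4 lists or of the myeloid list was at 0 on any array. The lowest intensity was 1.33 for the colon list and 1.74 for the neutrophil and eosinophil list, near the bottom of the scale. The part of these cells in the levels of Retnlb, Gsdmc2 and Pla2g4c was not tested.

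**Figure D3:**
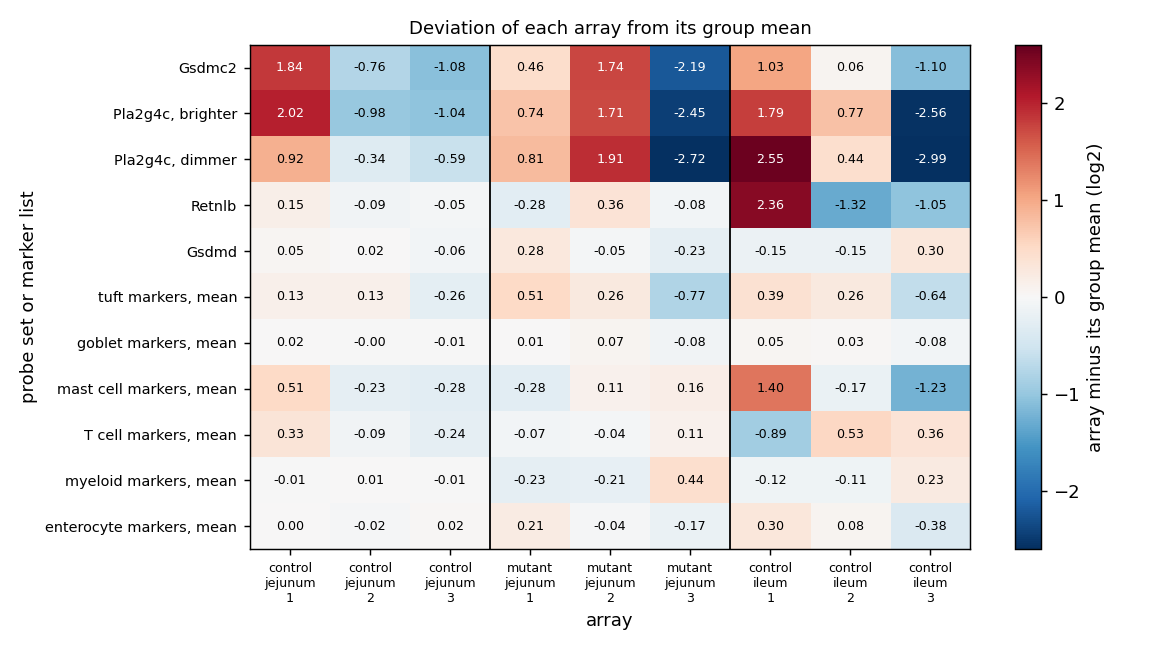
Deviation of each array from the mean of its group, in log2 units, for the 5 member probe sets and for the mean of 6 marker lists (rows) on 9 arrays (columns), with red above and blue below the group mean. Gsdmc2 and both Pla2g4c probe sets are positive on control jejunum 1, mutant jejunum 2 and control ileum 1 and lowest on mutant jejunum 3 among jejunal arrays, where the tuft mean is -0.77, while Retnlb departs by more than 1 only on ileal arrays.

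The remaining families of these genes were taken from lists of relatives and pathway partners, which were tested in the same fit. Gsdme, the gasdermin that caspase-3 cuts, rose in mutant jejunum by 2.29 (adjusted p = 0.000537) and was higher in control ileum than in control jejunum by 3.58 (adjusted p = 8.79e-06), in both of its probe sets each time. It stood at 7.31, 6.72 and 7.46 on control jejunum 1, 2 and 3, at 9.45, 9.99 and 8.93 on mutant jejunum 1, 2 and 3, and at 10.86, 10.68 and 10.69 on control ileum 1, 2 and 3. The 3 groups did not overlap, and mutant jejunum was lower than ileum by 1.29 on average (difference -1.29, adjusted p = 0.0246). That call was made on 1 of the 2 Gsdme probe sets and was lost in 6 of 21 other settings. Gsdma2 was near the filter level and not called (0.23 for mutant and 0.02 for ileum against control jejunum). Of the resistin family, Retn (resistin) and Retnla, the neighbour of Retnlb, were measured and neither was called in a contrast (limma; 1 with an unadjusted p under 0.05, between the control segments). Retnla stood at 5.14, 4.34 and 4.80 on control jejunum 1, 2 and 3, at 4.48, 7.12 and 5.32 on mutant jejunum 1, 2 and 3, and at 7.09, 5.99 and 6.23 on control ileum 1, 2 and 3 (1.68 for ileum against control jejunum, adjusted p = 0.0588). Among 3 other cytosolic phospholipases A2, Pla2g4a, the calcium-dependent one, was higher in ileum than in control jejunum by 0.73 (adjusted p = 0.0353, lost in 8 of 21 other settings). Pla2g4a was not called in the mutant (0.43, adjusted p = 0.334), and Pla2g4d and Pla2g4e were not called in any contrast.

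Over all lists, 79 relatives and partners were tested, and in the mutant 8 were higher and 2 lower than in control jejunum (10 of 79, beside 3.56% of all tested probe sets), with a median difference of 0.22 against 0.00 over all tested probe sets. In the inflammasome and pyroptosis list, 1 of 18 rose and none fell. That gene was Casp8, the initiator caspase that in human cells can cut gasdermin C, with a rise of 0.69 (adjusted p = 0.00586), and it was 0.74 higher in ileum than in control jejunum (adjusted p = 0.00104, but 0.18 and adjusted p = 0.406 without scaling between arrays). Casp1 and Pycard, which form the inflammasome core, were not called in the mutant (0.46 and 0.29). Between the control segments 4 of the 18 were called, where 16.2% of all tested probe sets were, with 2 higher in ileum and 2 lower. The lower ones were Il18, an inflammasome-activated cytokine (-1.11, adjusted p = 0.0459), and Gzma, a granzyme of cytotoxic lymphocytes (-1.26, adjusted p = 0.0199). Besides Casp8, the higher one was Naip6, a sensor of bacterial proteins (0.52, adjusted p = 0.0234), whose difference was -0.0016 without scaling between arrays.

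In the type 2 immune list, 9 of 20 genes were measured, and those below the filter on low values included Il5, Il13, Il25 and Chil4. Il33, an alarmin cytokine that activates type 2 lymphoid cells, fell in mutant jejunum by 1.75 (adjusted p = 0.000544) and was lower in ileum than in control jejunum by 2.48 on average (difference -2.48, adjusted p = 1.63e-05). It stood at 9.15, 8.66 and 8.51 on control jejunum 1, 2 and 3, at 7.16, 6.78 and 7.14 on mutant jejunum 1, 2 and 3, and at 6.48, 6.07 and 6.35 on control ileum 1, 2 and 3. The groups did not overlap, and Il33 was lowest in the ileum, where the gasdermin C probe sets had their highest means. The other 8, among them Il4ra (0.55, adjusted p = 0.233) and Stat6, which carry the signal of interleukins 4 and 13, were not called in the mutant.

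Of 16 other goblet cell genes, 1 rose and none fell in the mutant, which was Spdef, a goblet transcription factor (0.59, adjusted p = 0.0472, lost in 15 of 21 other settings). Klk1, a kallikrein protease, stood at 1.05 (adjusted p = 0.0527) on the probe set that represents it, while 2 of its 4 tested probe sets were called, so the count depends on the choice of probe set. Ang4, an antimicrobial ribonuclease, was not called in the mutant (-1.02, adjusted p = 0.0671), though its 2 jejunal groups did not overlap. Between the control segments, where 16.2% of all tested probe sets were called, 10 were higher in ileum and 1 was lower. The lower one was Fcgbp (-0.43), named here after its value was seen. The higher ones were led by Fut2, a fucosyltransferase (2.30, adjusted p = 0.00263), Klk1 (1.54), Atoh1, the secretory lineage factor (1.22), Spdef (1.13), Galnt12, a glycosyltransferase (1.01), and Ang4 (1.00). Against ileum, mutant jejunum was lower in 5 of the 16, which were Fut2 (-2.07, adjusted p = 0.0226), Ang4 (-2.02, adjusted p = 0.0041), Atoh1 (-0.77), Galnt12 (-0.70) and Agr2 (-0.62), and it was higher in none. Of all tested probe sets 2.65% were called in that contrast. Ang4 was called in 1 of its 2 probe sets. Gzma (1.40, adjusted p = 0.0433) and Elane (0.84, adjusted p = 0.0396) of the pyroptosis list were higher in mutant jejunum than in ileum. These calls against ileum were unstable: with Gsdme they are 8 in all, against 1 to 7 with single arrays left out and 34 with no scaling between arrays. Fut2 stood at 4.41 to 4.90 in control jejunum and 4.55 to 5.38 in mutant jejunum, whose ranges overlapped, against 6.41 to 8.09 in ileum. The jejunal levels were near the bottom of the scale. The difference between ileum and control jejunum ran from 1.29 to 3.40 over 21 other settings.

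Among 17 genes of fatty acid release and arachidonate metabolism, 1 rose and none fell in the mutant: Pla2g10, a secreted phospholipase A2 (0.69, adjusted p = 0.0154, lost in 5 of 21 other settings). Pla2g10 was also higher in ileum than in control jejunum (1.12, adjusted p = 0.000262), as was Pla2g5, another secreted one (1.94, adjusted p = 0.0042). Pla2g5 was near the bottom of the scale in control jejunum (mean 4.72), and its difference ran from 1.03 to 2.91 over 21 other settings. Pla2g12b and Ltc4s, the leukotriene C4 synthase, were lower in ileum (-0.76, adjusted p = 0.0312, and -1.86, adjusted p = 0.00138). Of 12 genes that handle lysophospholipids, the other product of phospholipase A2, 4 rose and 1 fell in the mutant. Lpcat4, an acyltransferase that returns lysophospholipid to phospholipid, rose by 2.53 (adjusted p = 0.00016) and Mboat1, another such enzyme, by 2.04 (adjusted p = 0.000354). Lpcat4 stood at 4.58, 4.87 and 4.33 on control jejunum 1, 2 and 3, between 6.85 and 7.53 on the mutant arrays, and at 7.37, 6.72 and 7.13 on control ileum 1, 2 and 3. Mutant jejunum 3, the array with the least Pla2g4c of its group, thus had the most Lpcat4. Control jejunum was near the bottom of the scale for Lpcat4, so the size of its difference depended on the processing. Over 21 other settings it ran from 1.38 to 3.86 in the mutant and from 1.35 to 3.80 in ileum. Gdpd1, which acts on lysophospholipids, rose by 0.99 (adjusted p = 0.00131), and Plb1, the brush border phospholipase B, rose by 1.09 (adjusted p = 0.0288, in 1 of 2 probe sets), though its direction depended on the processing, with -0.14 when arrays were not scaled and its other probe set stood for it. Gpcpd1, which splits glycerophosphocholine, fell by 0.63 (adjusted p = 0.0269, in 1 of 3 probe sets, lost in 8 of 21 other settings). Control ileum minus control jejunum, which shares the control jejunum arrays, gave called differences of 2.48 for Lpcat4, 2.29 for Mboat1, 0.68 for Gdpd1, 1.27 for Plb1 and -0.98 for Gpcpd1. Those for Gdpd1 and Plb1 were called in 1 of 2 probe sets and that for Gpcpd1 in 1 of 3. The Plb1 call was lost in 8 of 20 other settings, with a lowest difference of 0.013.

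**Figure D4:**
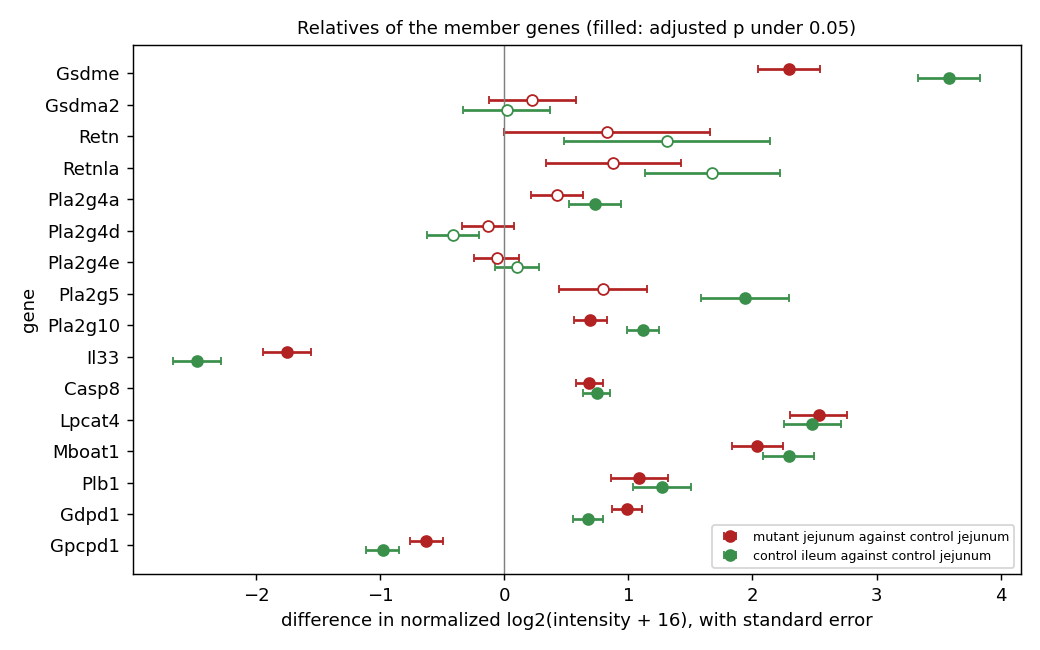
Differences of mutant jejunum (red) and control ileum (green) from control jejunum in normalized log2(intensity + 16) for 16 relatives and pathway partners of the member genes, with the standard error as bars and filled points for an adjusted p under 0.05. Gsdme, Lpcat4 and Mboat1 lie to the right of 0 in both contrasts and Il33 to the left, while Retn, Retnla, Pla2g4d and Pla2g4e are open.

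Genes around the members in RefSeq order (GRCm38.p6) were tested for the same contrasts. They were the nearest 3 protein-coding genes on each side with a measured probe set, and unmeasured genes between were passed over. Around the gasdermin C cluster none of 6 neighbours was called between mutant and control jejunum (limma; 2 with an unadjusted p under 0.05). The nearest measured one after it, Cyrib, differed by -0.01, and Adcy8, an adenylyl cyclase further out, was not called in the mutant (0.90, adjusted p = 0.0518) but was higher in ileum than in control jejunum (1.92, adjusted p = 0.000251). Naprt, an enzyme of NAD synthesis near Gsdmd, was the only 1 of the 24 neighbours of all member loci called in the mutant (-0.62, adjusted p = 0.0413). Of all tested probe sets 3.56% were called in that contrast, so nothing is read from this count. Naprt was also lower in ileum than in control jejunum (-0.66, adjusted p = 0.0106). Between the control segments 1 of the 24 was higher in ileum and 2 were lower, where 16.2% of all tested probe sets were called. Cd96, 8 steps in gene order from Retnlb, was lower in ileum than in control jejunum (-0.77, adjusted p = 0.0314). Around Pla2g4c no neighbour was called in any of the 3 contrasts (limma; 1, 1 and 0 with an unadjusted p under 0.05 for mutant against control jejunum, ileum against control jejunum and mutant against ileum). These neighbours lay 1, 2 and 10 steps before Pla2g4c and 17, 18 and 19 after it, so the genes closest after it were not measured.

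Among genes outside the members, those whose level most resembled each member over the 9 arrays were taken by Pearson r. For Pla2g4c (1436712_at) they were the goblet gene Clca1 (1459889_at, r = 0.977), Relb, an NF-kappa-B subunit (0.972), and Edn2, endothelin 2 (0.965). Clca1 on that probe set stood at 7.26, 6.73 and 6.64 on control jejunum 1, 2 and 3, at 8.02, 8.04 and 7.07 on mutant jejunum 1, 2 and 3, and at 8.53, 8.02 and 7.42 on control ileum 1, 2 and 3. For Gsdmc2 they were Frk, a tyrosine kinase of epithelia (0.983), Mad2l1bp (0.978) and Plekha3 (0.977). Retnlb was most like Sdc1, the proteoglycan syndecan 1 (0.979), Nupl1 (0.977) and Lims1 (0.972), and Gsdmd was most like Mical1 (0.984), Spata2 (0.974) and Rgs3 (0.974). These coefficients come from levels in which the 3 groups differ, so they reflect the group means as well as the single arrays, and the arrays are shared.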

How the data were processed

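RNA was measured on 9 Affymetrix arrays, 3 in each of 3 groups taken from the sample titles. The deposited values are linear intensities per probe set made by the authors with GCOS, per the submitters' processing notes, with no version or settings named there. The 64 array controls were left out, log2(intensity + 16) was quantile-normalized because the deposited arrays differed in brightness, and probe sets with at least 3 arrays above the 40th percentile were kept. Differences were fitted in limma 3.58.1 (R 4.3.3) over all 9 arrays with an intensity trend, two-sided, with Benjamini-Hochberg adjustment over 29307 probe sets and a call at an adjusted p under 0.05. An exact permutation test of 3 against 3 cannot go below 0.1 and was not used. The number of arrays limits the precision. A gene outside the members was represented by its tested probe set with the highest mean. Gene symbols come from the array's annotation table (34945 probe sets with 1 gene, 932 with several, 9160 with none). On simulated data for mutant against control jejunum, with 29307 probe sets, 56.0% of changes of 1 log2 unit and 93.0% of changes of 2 were recovered. The members, the gene lists and the tests were chosen with earlier results of these data known. The text names all member probe sets, the relatives in their families, up to 6 called genes per list, 3 neighbours per side and 3 most similar genes per member. Correlations of same-numbered deviations between groups ran from -0.07 to 0.17, and the main fit had no replicate block. These correlations do not exclude an effect common to same-numbered arrays on single genes. Array 3 was the lowest of each group for Gsdmc2, both Pla2g4c probe sets and the tuft mean. Alternatives changed scaling, pseudocount, filter, weights, spread, probe set choice, the replicate block and single arrays.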

Additional observations from a re-analysis of the deposited data

How the results depend on the processing

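Over 20 alternative settings per contrast, the differences of the 5 member probe sets kept their direction between mutant and control jejunum and between ileum and control jejunum. Between mutant jejunum and ileum, Pla2g4c changed sign in 4 settings on its first probe set (main value -0.48; 0.09 with no scaling, 0.21 with array weights, 0.75 without mutant jejunum 3 and 0.41 without control ileum 1) and in 2 on its second (main value -1.13; 0.24 and 0.15 without those arrays), while the other 3 probe sets kept their direction. The number of member probe sets passing the threshold between mutant and control jejunum was 1, and it was 3 with no scaling between arrays, 0 with a pseudocount of 64, 0 with no filter on low values, 4 with array weights, and 0 to 2 when single arrays were left out. With the replicate number as a block it was 4. The numbers mark separate mice. For ileum against control jejunum the count of 5 ranged from 3 to 5 when single arrays were left out, and for mutant jejunum against ileum the count of 0 became 1 with no scaling. Among the 79 relatives and partners, 10 were called in the mutant, 6 with no scaling and 6 to 10 with single arrays left out. Between mutant jejunum and ileum 8 were called, 34 with no scaling, 5 with no filter, 15 with array weights, 2 in a fit of the 2 groups alone, 5 with no intensity trend, and 1 to 7 with single arrays left out. The rise of Plb1 in the mutant turned to -0.14 with no scaling, -0.093 with arrays centred on their medians and -0.15 with a pseudocount of 1, where its other probe set had the higher mean and stood for it. With single arrays left out, Plb1 ranged from -0.11 to 1.31. The difference of Naip6 between ileum and control jejunum was -0.0016 with no scaling. For Retnlb in the mutant, a pseudocount of 1 gave 5.99 and one of 64 gave 1.82. Levels near 4 hold no information on size.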

Other observations

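Genes whose deviations from their group means ran closest to those of Gsdmc2 were looked up among tested probe sets with a within-group spread of at least 0.5, a choice made after the members' values had been seen. AA467197 (synonym Nmes1 in RefSeq) led with r = 0.998 over the 9 arrays. It stood at 11.69, 9.72 and 9.56 on control jejunum 1, 2 and 3, at 11.18, 11.93 and 9.33 on mutant jejunum 1, 2 and 3, and at 12.80, 12.12 and 11.34 on control ileum 1, 2 and 3. Its groups overlapped between control and mutant jejunum, with control jejunum 1 above mutant jejunum 1. Cd55, a complement regulator of the cell surface, was also among the 10 closest (r = 0.892) and stood at 9.72, 8.23 and 8.37 in control jejunum, at 10.86, 10.84 and 9.06 in mutant jejunum, and at 11.40, 9.92 and 8.70 in the ileum. Ppargc1a, a coactivator of mitochondrial genes, ran with Gsdmc2 within groups (r = 0.948), while its group means went from 7.43 in control jejunum to 6.55 in mutant jejunum and 6.97 in control ileum, where those of Gsdmc2 rose.

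Alox5 and Alox5ap, the enzyme and helper protein that start leukotriene synthesis, were low on the arrays with little Gsdmc2 in mutant jejunum and ileum. They were picked out after their values had been seen, and neither was called in any contrast. Alox5ap stood at 8.10, 7.95 and 6.97 on mutant jejunum 1, 2 and 3 and at 7.59, 7.32 and 6.23 on control ileum 1, 2 and 3. Its control jejunum mean was 7.01 (SD 0.37). The part of any cell type in these levels was not tested. Pla2g2a, a secreted phospholipase of Paneth cells whose gene is known to be disrupted in some inbred mouse strains, stood at 7.12, 12.84 and 7.08 on control jejunum 1, 2 and 3, at 7.23, 12.77 and 8.85 on mutant jejunum 1, 2 and 3, and at 13.53, 9.57 and 10.16 on control ileum 1, 2 and 3. The highest Pla2g2a array was also the highest for Gsdmc2 in mutant jejunum (array 2) and ileum (array 1). In control jejunum Pla2g2a was highest on array 2 and Gsdmc2 on array 1. Both were lowest on array 3 in control jejunum. In mutant jejunum and ileum Pla2g2a was lowest on arrays 1 and 2, and Gsdmc2 on array 3 of each group.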
